A study of Mus musculus with 2 samples.

Results

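Matrix metalloproteinases (MMPs), their tissue inhibitors (TIMPs) and the related protease Adamts1 were followed across the cells of perigonadal white adipose tissue (gWAT) that had used the Cyp1a1 gene. The family was taken by symbol as 10 genes of the 32285 in the count tables, 6 MMPs (Mmp2, Mmp3, Mmp9, Mmp12, Mmp14 and Mmp19), 3 inhibitors (Timp1, Timp2 and Timp3) and Adamts1, and each symbol matched 1 row. The mice were male Cyp1a1 fate reporters, Cyp1a1Cre x R26LSL-eYFP, in which Cre under the Cyp1a1 promoter leaves a lasting yellow fluorescent protein (eYFP) signal, so eYFP marks cells with Cyp1a1 activity at or before collection. Purified diet with 10% fat (low-fat diet, LFD) or 60% fat (high-fat diet, HFD) was given over 12 weeks, and both diet groups were injected with FICZ, a ligand of the aryl hydrocarbon receptor (AHR), at 10 mg/kg 5 days before collection. Their age is not given in the labels. DAPI- eYFP+ cells of the stromovascular fraction, the cells left when mature adipocytes are removed, were sorted and profiled by 10x Genomics 3' single-cell RNA-seq. Each diet had 1 library made from pooled mice, so there was no replicate, no group without FICZ and no eYFP- cell, and diet and library cannot be told apart. No test between diets was possible, and each ratio compares a pair of libraries.

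MMPs are zinc proteases that cut collagens, gelatins and other proteins of the extracellular matrix and are made as inactive proenzymes. TIMPs block their active site, and Timp3 also inhibits ADAM and ADAMTS proteases. Fat tissue remodels its matrix as adipocytes enlarge and new vessels form. The membrane-anchored Mmp14 takes a central place there, since it cuts fibrillar collagen and, together with Timp2 as an adaptor, activates proMmp2.

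After filtering, 9294 LFD cells with a median of 10223 unique molecular identifiers (UMIs, counted RNA molecules) and 7879 HFD cells with a median of 12721 UMIs were kept. The clusters were named from marker genes other than the family. Stromal-like cells made up 5941 of the LFD and 4039 of the HFD cells and took in 4 Wt1+ stromal-like clusters (numbered 0, 3, 4 and 7), mesothelial-like, cycling stromal-like and fibroblastic progenitor-like cells. Clusters 4 and 7 came almost entirely from the LFD library, with 1310 and 961 LFD cells against 61 and 28 HFD cells. The other large types were endothelial-like (663 LFD and 606 HFD cells), macrophage-like (592 and 527), B-like (1147 and 818) and plasma cell-like (387 and 1377). Adipoq, an adipocyte gene, had 58 UMIs in the LFD and 31 in the HFD library, and the epididymal genes Defb48 and Lcn8 had 240 and 334 UMIs in the LFD library and 21 and 1 in the HFD library; their part in the results was not tested. Cluster 20, with 10 LFD and 70 HFD cells, held both mural and endothelial genes and was left unnamed: its 8 mural markers summed to 4873 CPM in LFD against 3723 CPM in HFD, and its 8 endothelial markers to 2583 and 5904 CPM. The unnamed cluster 19, with 31 LFD and 61 HFD cells of few UMIs, was led by haemoglobin and epididymal genes. The 4 erythroid markers summed to 437 CPM in LFD, with none at 0, against 1.17 CPM in HFD macrophage-like cells, with 1 at 0; their part in the macrophage-like results was not tested. Of the cell barcodes kept, 21 occurred in both libraries.

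Levels are UMI counts of a gene scaled to 1000000 UMIs of a cell type in a library (CPM), and ratios are HFD to LFD CPM. The 95% intervals in parentheses cover counting error only and not the spread between mice, sorts or libraries. Because a level depends on transcript capture, levels are compared within a gene and not between genes. The median gene was 1.08 to 1.10 times higher in the HFD library in the pooled stromal-like, mesothelial-like, cycling, fibroblastic progenitor-like and endothelial-like cells, and "scaled" ratios are relative to that median.

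The family split by cell type in both libraries. Stromal-like cells gave 99.0% of the Mmp2 UMIs of each library and 99.0% (LFD) and 98.9% (HFD) of the Timp1 UMIs. Macrophage-like cells gave 95.3% and 98.2% of the Mmp12 UMIs. For Mmp9, neutrophil-like cells gave 43.4% and 38.0%. Timp3 and Adamts1 reached their highest levels in the unnamed cluster 20, although with 10 LFD cells their LFD intervals overlapped those of the next type.

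**Figure D1:**
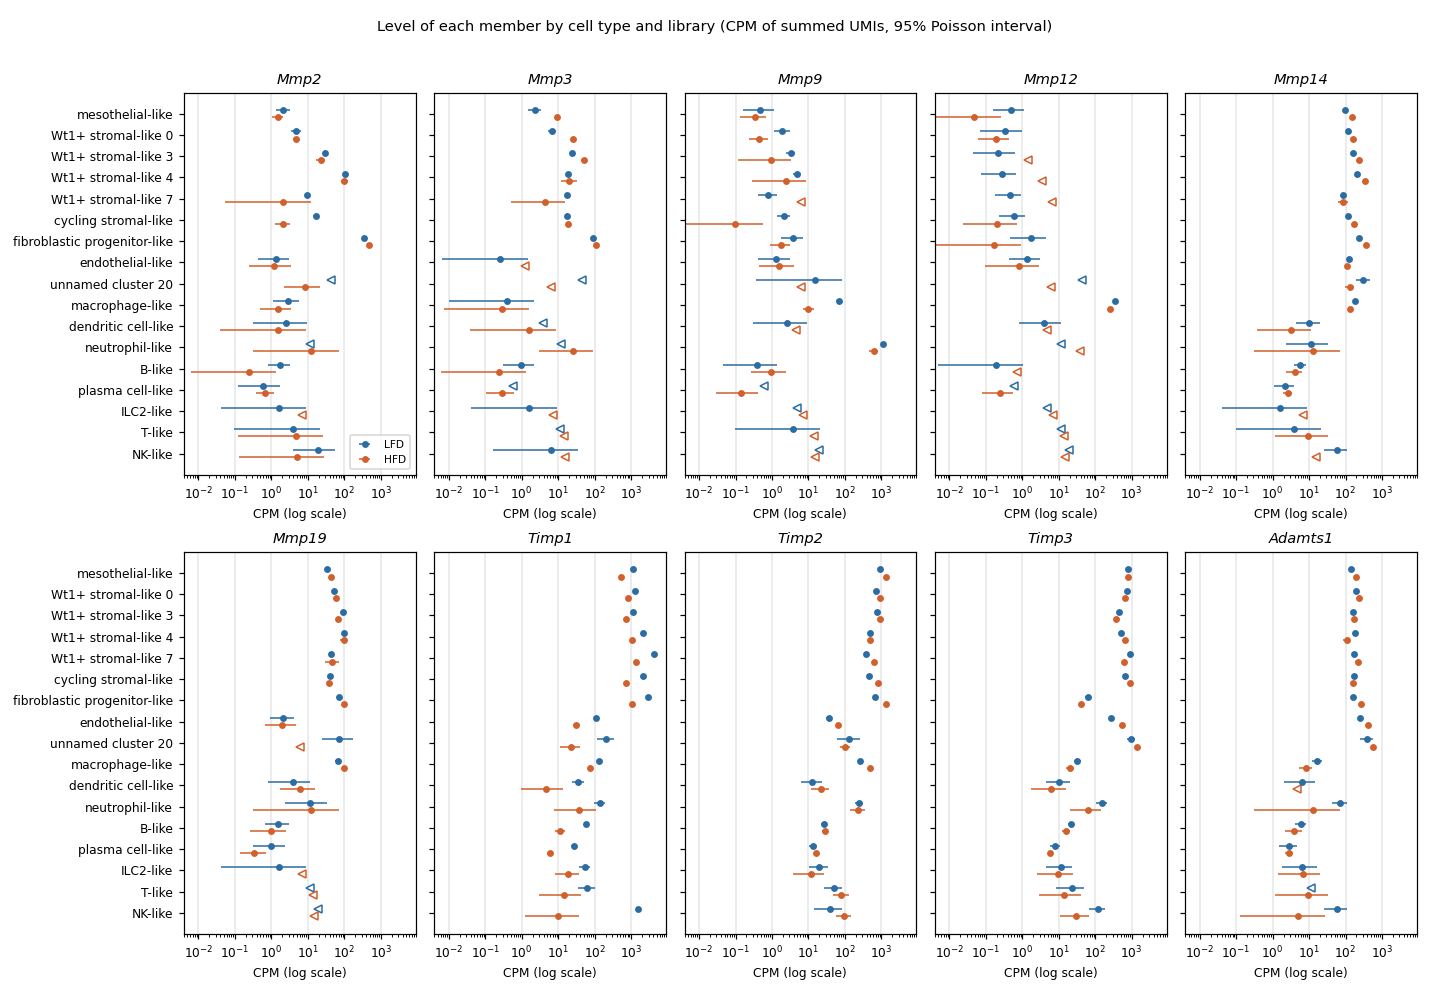
Level of each of the 10 genes (CPM, log axis) in each cell type, with 1 point per library and 95% Poisson intervals for counting error; open triangles stand at the level of 3 counts where the count was 0. Mmp12 stood at 338 (LFD) and 250 CPM (HFD) in macrophage-like cells, whereas Timp1 was above 500 CPM in every stromal-like cluster of both libraries.

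Timp1, a secreted inhibitor of most MMPs, had the largest difference between the libraries among the 3 inhibitors. In pooled stromal-like cells its level was 2144 CPM (2134 to 2154) in the LFD library and 745 CPM (738 to 751) in the HFD library, giving a ratio of 0.347 (0.344 to 0.351). Per cell, the median was 1042 CPM in LFD against 513 CPM in HFD cells, and the range from the 5th to the 95th percentile was 157 to 6721 CPM and 60.2 to 1915 CPM, so the cells of the libraries overlapped widely. The largest LFD level was found in cluster 7, at 4240 CPM (4208 to 4273), against 1340 CPM (1238 to 1449) in its 28 HFD cells. Without clusters 4 and 7, the pooled ratio was 0.493.

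The lower HFD level of Timp1 held in each stromal-like cluster with at least 100 cells per library, with ratios from 0.341 to 0.654. The mesothelial-like cells, named from keratins and uroplakins, had 1126 CPM in LFD against 528 CPM in HFD, giving a ratio of 0.469 (0.457 to 0.481). This ratio was 0.291 when doublets were kept. Cycling stromal-like cells had 2145 and 731 CPM, giving a ratio of 0.341 (0.332 to 0.350). In the same cells the 8 mesothelial markers, none at 0, summed to 545 CPM in LFD against 1113 CPM in HFD, and their part in the results for cycling cells was not tested. Clusters 0 and 3 gave the smallest differences, with ratios of 0.654 (0.639 to 0.669) and 0.647 (0.613 to 0.682). After each cell was thinned to 2000 UMIs to remove depth differences, 80.5% (79.5 to 81.5%) of LFD and 63.3% (61.7 to 64.8%) of HFD stromal-like cells had a Timp1 UMI; unthinned, nearly every cell had one, 98.3% and 95.5%.

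Timp1 UMIs also appeared at lower levels outside the stroma. B-like cells stood at 58.6 CPM in LFD against 11.4 CPM in HFD, close to the level estimated for free stromal RNA in those cells (59.3 and 12.8 CPM). Their ratio of 0.194 was 0.524 when each cell was assigned by its own markers. After thinning, 12.8% of LFD and 2.39% of HFD B-like cells had a UMI. Endothelial-like cells had 106 and 31.3 CPM, above free RNA estimates of 55.1 and 13.6 CPM. Macrophage-like cells had 128 and 76.3 CPM, above estimates of 80.6 and 8.55 CPM, giving a ratio of 0.596 (0.504 to 0.703) that became 0.262 when doublets were kept. It was 0.803 (0.654 to 0.987) in macrophage-like cells with no UMI of the neutrophil markers and 0.324 (0.231 to 0.448) in those with one. With the free RNA estimates taken off, 47.6 CPM in LFD against 67.8 CPM in HFD were left, so the direction turned. In NK-like cells, 240 of the 245 LFD counts came from 1 cell.

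Timp2, the inhibitor that also serves Mmp14 in activating proMmp2, was higher in the HFD library. Pooled stromal-like cells had 592 CPM (587 to 598) in LFD against 1064 CPM (1056 to 1072) in HFD, giving a ratio of 1.80 (1.78 to 1.82), or 1.55 without clusters 4 and 7. Per-cell medians were 538 and 958 CPM. The fibroblastic progenitor-like cells, which carry Pdgfra, Dcn and collagen genes, had 654 CPM in LFD and 1359 CPM in HFD, giving a ratio of 2.08 (1.97 to 2.19). Mesothelial-like cells had 902 and 1307 CPM, giving a ratio of 1.45 (1.42 to 1.48). Among the stromal-like clusters with at least 100 cells per library, clusters 0 and 3 again differed least, at 1.33 (1.30 to 1.37) and 1.25 (1.19 to 1.31). Cluster 4, with 61 HFD cells, had 475 and 478 CPM, almost the same level.

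Outside the stroma, Timp2 was found in macrophage-like cells at 259 CPM (239 to 279) in LFD against 500 CPM (476 to 524) in HFD, giving a ratio of 1.93 (1.76 to 2.12), well above the free RNA estimates of 22.3 and 12.2 CPM. After thinning, 29.1% (25.2 to 33.3%) of LFD and 52.0% (47.5 to 56.5%) of HFD macrophage-like cells had a Timp2 UMI, while B-like cells had 5.34% and 5.67%. Neutrophil-like cells stood at 241 and 226 CPM, with overlapping intervals. Endothelial-like cells had 35.8 and 65.0 CPM, with free RNA estimated at 15.2 and 19.4 CPM, and their ratio of 1.82 (1.44 to 2.30) was 1.19 when doublets were kept. Of their clusters, 11 had a ratio of 1.27 (0.855 to 1.92), which includes 1, and 12 had 2.10 (1.56 to 2.82). The Timp2 locus (chr11:118301069-118355740, minus strand) overlaps Cep295nl on the same strand, and Cep295nl had 104 and 188 UMIs in the whole LFD and HFD libraries.

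**Figure D2:**
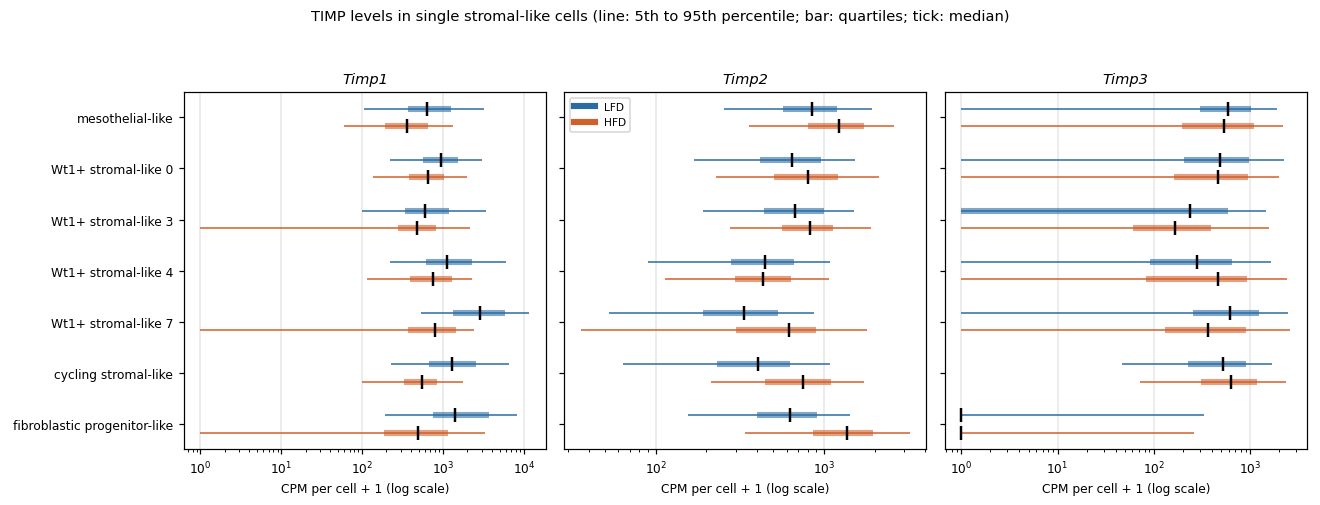
Timp1, Timp2 and Timp3 levels of single cells (CPM per cell + 1, log axis) in 7 stromal-like types by library; ticks are medians, bars the quartiles and lines the 5th to 95th percentiles. The HFD median lies below the LFD median for Timp1 in each type and above it for Timp2 in each type but cluster 4; in mesothelial-like cells the medians are 626 and 363 CPM for Timp1 and 845 and 1225 CPM for Timp2.

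Because Timp1 and Timp2 had opposite ratios in the same cells, their RefSeq upstream sequences (GRCm38.p6) were searched, and that of Timp1 is shown, 250 bases up to the annotated start, with Mmp3, the family MMP with the highest pooled stromal ratio, beside it. Capitals mark GCGTG, the core of the AHR response element, or TGANTCA, the AP-1 site; both strands were searched in windows that run 50 bases past the start. Timp1 lies at chrX:20869916-20870165 (plus strand) and Mmp3 at chr9:7445572-7445821 (plus strand). The Timp2 window, chr11:118355412-118355661 (minus strand), lies inside the GENCODE span of the gene because the RefSeq and GENCODE starts differ, and its sequence is not shown.
Timp1: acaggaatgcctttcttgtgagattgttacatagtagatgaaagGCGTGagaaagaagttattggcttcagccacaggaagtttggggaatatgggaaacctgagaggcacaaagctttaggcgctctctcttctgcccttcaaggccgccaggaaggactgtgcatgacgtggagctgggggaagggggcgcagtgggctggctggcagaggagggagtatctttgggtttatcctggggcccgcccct
Mmp3: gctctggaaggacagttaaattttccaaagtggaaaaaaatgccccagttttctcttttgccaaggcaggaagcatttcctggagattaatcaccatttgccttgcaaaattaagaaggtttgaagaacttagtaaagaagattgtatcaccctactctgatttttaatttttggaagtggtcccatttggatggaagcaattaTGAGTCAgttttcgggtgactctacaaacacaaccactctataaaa
GCGTG begins 206 bases before the start of Timp1 and 113 bases before the RefSeq start of Timp2. Promoter windows were found for 7 of the 10 genes, 8 windows in all because Mmp12 had a pair. GCGTG was present in 4 of the 8 (Timp1, Timp2, Timp3 and Adamts1), against 32.4% of all 32851 mouse promoter windows of this length. TGANTCA was present in 2 of the 8, Mmp3 and 1 of the Mmp12 windows, 46 and 44 bases before the start, against 7.81% of all windows. A match describes letters in a window and not a bound site.

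Timp3, which binds to the matrix and inhibits ADAM17 and ADAMTS proteases as well as MMPs, differed little in the stroma as a whole. Pooled stromal-like cells had 645 CPM in LFD against 671 CPM in HFD, giving a ratio of 1.04 that turned to 0.962 on the scaled measure, so it has no stable direction. The same was true of mesothelial-like cells, at 790 and 792 CPM, with a ratio of 1.00 and a scaled ratio of 0.923. Cluster 0 (0.907) and cluster 3 (0.837) were lower and cycling cells (1.32) higher in the HFD library. Fibroblastic progenitor-like cells had little Timp3, 63.5 CPM in LFD against 42.0 CPM in HFD, giving a ratio of 0.662 (0.539 to 0.815) that turned to 1.18 when doublets were kept.

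Endothelial-like cells showed the largest Timp3 difference, 265 CPM (249 to 282) in LFD against 559 CPM (530 to 589) in HFD, giving a ratio of 2.11 (1.94 to 2.29), or 1.68 from per-cell means. In the same cells the 8 mural markers, none at 0, summed to 82.3 CPM in LFD against 215 CPM in HFD, and their part in this difference and in that of Adamts1 was not tested. The type consisted of a pair of clusters. In cluster 11, high in the capillary gene Gpihbp1, Timp3 was 683 CPM in LFD against 887 CPM in HFD, giving a ratio of 1.30 (1.17 to 1.44). In cluster 12, where Plvap was higher, it was 147 and 282 CPM, giving a ratio of 1.91 (1.66 to 2.20). Cluster 11 held 327 of 663 LFD and 410 of 606 HFD endothelial-like cells, and both cluster ratios were smaller than the pooled one. Cluster 20 had 969 CPM (749 to 1232) and 1378 CPM (1275 to 1486). In macrophage-like cells, Timp3 was 32.1 and 20.3 CPM, beside free RNA estimates of 24.2 and 7.69 CPM, and its ratio of 0.630 was 0.811 when doublets were kept and 0.319 when each cell was assigned by its own markers. With the estimates taken off, 7.90 and 12.6 CPM were left, the opposite direction.

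Mmp14, the membrane-anchored collagenase, was detected in stromal-like, endothelial-like and macrophage-like cells and in cluster 20. Pooled stromal-like cells had 137 CPM (134 to 140) in LFD against 179 CPM (176 to 183) in HFD, giving a ratio of 1.31 (1.28 to 1.34). Every one of the 5 stromal-like clusters with a ratio was above 1, from 1.29 in cluster 0 to 1.61 (1.46 to 1.77) in fibroblastic progenitor-like cells, where the levels were 234 and 376 CPM. Mesothelial-like cells had 94.8 and 147 CPM, giving a ratio of 1.55 (1.44 to 1.67). Scaled, these last values were 1.49 and 1.43.

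Outside the stroma the direction was not uniform. Macrophage-like cells had 183 CPM (167 to 201) of Mmp14 in LFD against 134 CPM (122 to 147) in HFD, giving a ratio of 0.734 (0.643 to 0.837), with free RNA estimated at 5.15 and 2.06 CPM. The macrophage-like ratio was 0.579 (0.493 to 0.679) in cells with no neutrophil marker UMI, 1.27 (1.00 to 1.62) in the 159 LFD and 120 HFD cells with one, and 0.665 (0.532 to 0.833) and 0.906 (0.766 to 1.07) in cells with and without a UMI of the resident macrophage genes Lyve1, Folr2, Cd163 or Timd4. Endothelial-like cells had 129 and 112 CPM, giving a ratio of 0.871 (0.749 to 1.01) that includes 1. Of the endothelial-like cells, cluster 12 held most Mmp14, at 153 and 184 CPM, giving a ratio of 1.21 (1.03 to 1.41) in the direction of the stroma, while cluster 11 had 42.9 and 26.3 CPM, giving a ratio of 0.613 (0.365 to 1.02). In the few cells of cluster 20, it was 308 CPM (191 to 471) and 130 CPM (99.7 to 166).

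Mmp2, gelatinase A, which cuts denatured collagen and type IV collagen, marked the fibroblastic progenitor-like cells. Their level was 343 CPM (320 to 367) in LFD against 464 CPM (447 to 481) in HFD, giving a ratio of 1.35 (1.25 to 1.46). Next in order in both libraries came cluster 4, at 105 CPM (100 to 111) and 98.8 CPM (78.8 to 122), and then cluster 3, at 30.0 and 22.7 CPM, with an interval that overlapped that of the next type. Cycling stromal-like cells had 16.3 CPM (14.0 to 18.7) in LFD against 2.08 CPM (1.29 to 3.19) in HFD, giving a ratio of 0.128 (0.0776 to 0.202), in cells whose mesothelial markers stood at 545 CPM in LFD against 1113 CPM in HFD; mesothelial-like cells had 2.13 and 1.49 CPM of Mmp2. Fibroblastic progenitor-like cells accounted for 25.1% of all LFD Mmp2 UMIs and 89.3% of the HFD ones, while cluster 4 held 1310 LFD and 61 HFD cells.

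Mmp3, stromelysin-1, which cuts many matrix proteins and activates other proMMPs, was also highest in fibroblastic progenitor-like cells, at 92.7 CPM (80.8 to 106) in LFD against 110 CPM (102 to 118) in HFD. Their ratio of 1.18 (1.02 to 1.39) became 0.971 as a ratio of per-cell means, so its direction is not stable. A few cells carried most of it: 6 LFD and 19 HFD cells with at least 10 UMIs held 57.1% and 59.8% of the counts. Clearer differences lay in cells with low levels. In cluster 0, Mmp3 was 6.71 CPM (5.12 to 8.64) in LFD against 25.5 CPM (23.6 to 27.5) in HFD, giving a ratio of 3.79 (2.91 to 5.03). Mesothelial-like cells had 2.32 and 9.55 CPM, giving a ratio of 4.12 (2.69 to 6.58) from 24 and 199 counts. This ratio was 2.75 at a higher clustering resolution and 5.35 when doublets were kept. Cluster 3 had 24.5 and 51.6 CPM, giving a ratio of 2.11 (1.68 to 2.62). Cycling cells showed no stable direction, with a ratio of 1.07 and a scaled ratio of 0.985.

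**Figure D3:**
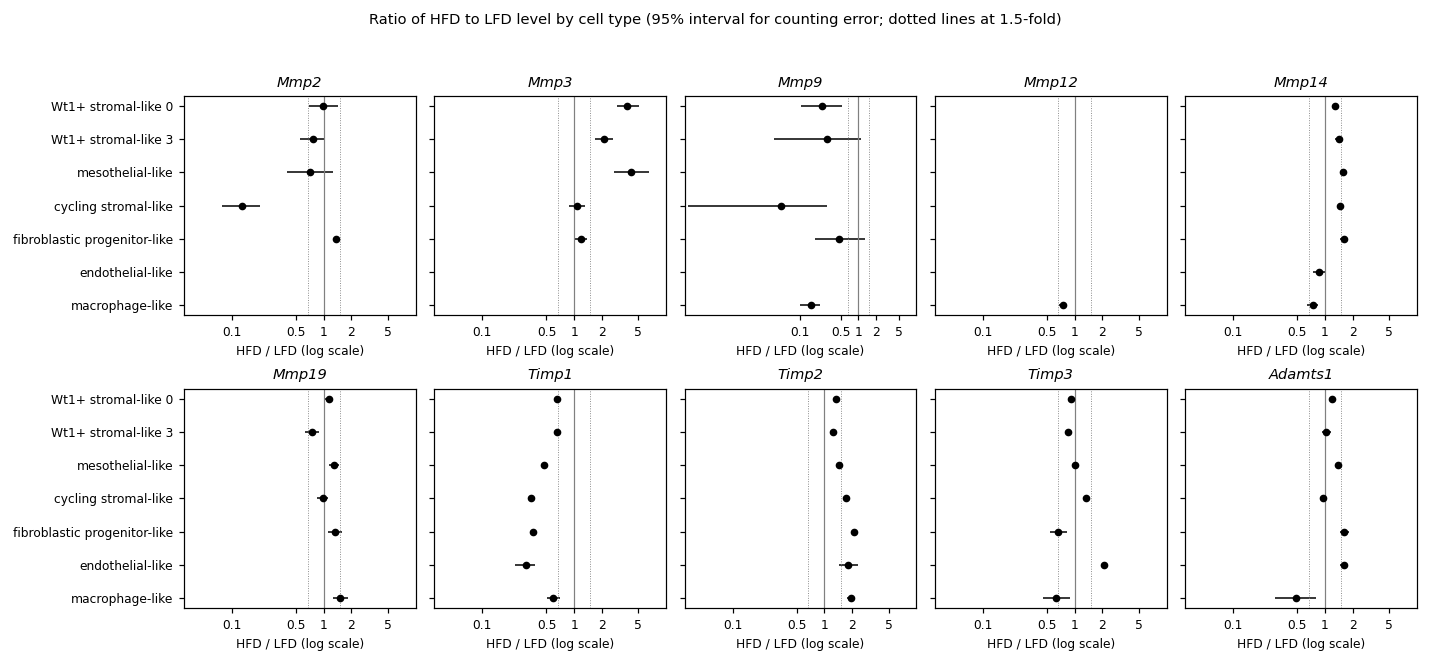
HFD to LFD ratio of each gene (log axis) in 7 types that held 100 or more cells of each library, with 95% intervals for counting error; dotted lines mark a 1.5-fold difference either way, and types with under 20 counts are left out. Timp1 lies below 1 in the 7 types drawn, from 0.296 in endothelial-like cells to 0.654 in cluster 0, whereas Timp2 lies above 1 in them, from 1.25 in cluster 3 to 2.08 in fibroblastic progenitor-like cells.

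The fibroblastic progenitor-like cells were not uniform. At a higher clustering resolution they parted into sub-cluster A, with 32 LFD and 478 HFD cells, and sub-cluster B, with 185 LFD and 106 HFD cells. This split was chosen after the values had been seen. Pi16, a gene of interstitial progenitors, was at 192 and 155 CPM in A and 17.9 and 16.4 CPM in B. Dpp4, another gene of these progenitors, had 22.1 CPM (8.13 to 48.2) in LFD against 93.0 CPM (84.7 to 102) in HFD cells of A, and 8.69 against 19.6 CPM (12.7 to 28.9) in those of B, so the LFD cells of A overlapped the HFD cells of B.

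Several ratios of the pooled type were not found within sub-cluster B, and for sub-cluster A, with 32 LFD cells, levels are given without a ratio. Timp2 was 1037 CPM (920 to 1166) in LFD against 1560 CPM (1525 to 1595) in HFD in A, while its ratio in B was 0.984 (0.898 to 1.08), against 2.08 pooled. Timp1 was 753 CPM (653 to 864) and 819 CPM (794 to 845) in A, with overlapping intervals, and 3218 and 1993 CPM in B, giving a ratio of 0.619 (0.591 to 0.648), against 0.357 pooled. The sub-clusters thus had unlike Timp1 levels and were present in unlike numbers. Mmp2 was 624 CPM (533 to 725) and 504 CPM (484 to 524) in A and had a ratio of 1.01 (0.888 to 1.15) in B, so neither showed the pooled ratio of 1.35. Mmp3 was 221 CPM (169 to 285), from 60 counts, and 94.9 CPM (86.4 to 104) in A and had a ratio of 2.17 (1.76 to 2.68) in B. Single fibroblastic progenitor-like cells held up to 43 of the 219 LFD and 60 of the 674 HFD counts of Mmp3. The sub-cluster values were not recomputed without them, so neither direction is secure. Timp3 was 59.1 CPM (33.8 to 95.9) and 37.3 CPM (32.0 to 43.1) in A, with overlapping intervals. Its ratio in B was 0.945 (0.704 to 1.26), against 0.662 pooled. Mmp14 was higher in the HFD library in both sub-clusters, at 199 CPM (150 to 260) and 349 CPM (333 to 366) in A and with a ratio of 2.00 (1.77 to 2.25) in B.

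**Figure D4:**
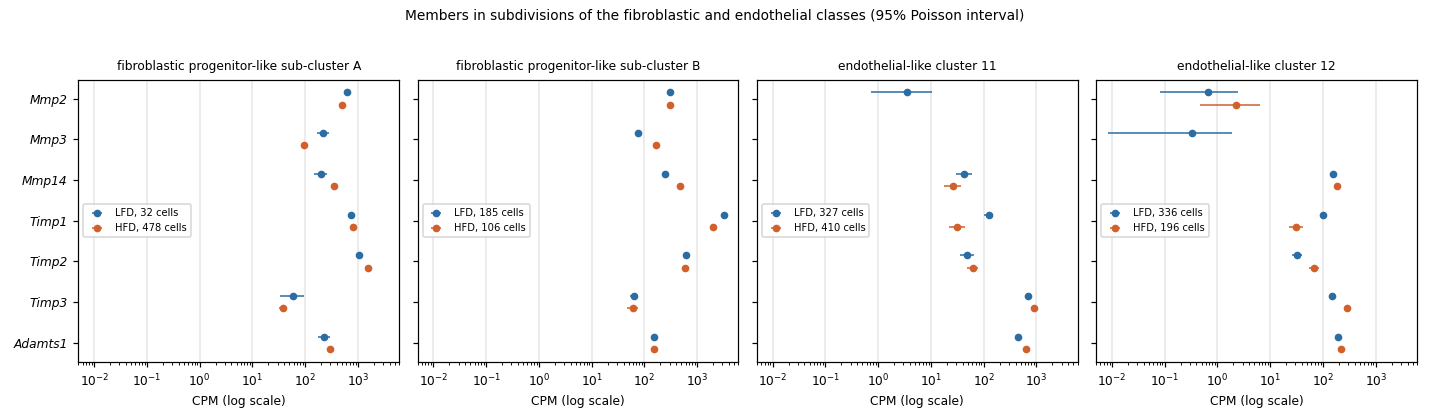
Levels (CPM, log axis) of 7 family genes in the sub-clusters of fibroblastic progenitor-like cells and in the clusters of endothelial-like cells, by library, with 95% intervals for counting error; genes with 0 counts are not drawn. Timp1 was 753 and 819 CPM in sub-cluster A and 3218 and 1993 CPM in sub-cluster B, and Timp3 was 683 and 887 CPM in endothelial-like cluster 11 and 147 and 282 CPM in cluster 12.

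Mmp9, gelatinase B, which neutrophils store in granules, was highest in neutrophil-like cells, at 1092 CPM (968 to 1227) in LFD against 614 CPM (454 to 812) in HFD. These rest on 281 and 49 counts in 177 and 72 cells, and no ratio is given below 100 cells in a library. The 6 neutrophil markers summed to 125341 CPM in LFD against 61811.5 CPM in HFD neutrophil-like cells, with none at 0. Their part in the Mmp9 levels was not tested. Macrophage-like cells had 66.7 CPM (57.0 to 77.5) and 9.98 CPM (6.91 to 13.9), giving a ratio of 0.150 (0.100 to 0.218). In the same cells, the 6 neutrophil markers summed to 155 CPM in LFD, with none at 0, and to 52.8 CPM in HFD, with 3 at 0. Among macrophage-like cells with no UMI of these markers, a split chosen after the values had been seen, Mmp9 was 63.4 and 9.75 CPM, giving a ratio of 0.154 (0.0954 to 0.239). Pooled stromal-like cells had 2.41 and 0.520 CPM, giving a ratio of 0.216.

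Mmp12, macrophage elastase, stood at 338 CPM (316 to 362) in LFD against 250 CPM (233 to 267) in HFD macrophage-like cells, giving a ratio of 0.738 (0.670 to 0.813), and at 0.529 as a ratio of per-cell means. The ratio was 0.626 (0.558 to 0.702) in macrophage-like cells with no neutrophil marker UMI and 1.12 (0.936 to 1.35), with no direction beyond counting error, in those with one. Few cells carried it. A UMI was found in 13.3% of LFD and 11.6% of HFD macrophage-like cells, and 22 and 25 cells with at least 10 UMIs held 79.0% and 85.1% of the counts. Pooled stromal-like cells had 0.425 and 0.134 CPM.

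Mmp19, a secreted MMP that can cut basement membrane proteins, was shared by stromal-like and macrophage-like cells. Pooled stromal-like cells had 62.2 and 55.3 CPM, giving a ratio of 0.889 (0.851 to 0.928), while cluster 0 (1.14), mesothelial-like (1.29) and fibroblastic progenitor-like cells (1.31, 1.10 to 1.56) were above 1 and cluster 3 (0.745) below it. Within the fibroblastic progenitor-like cells, Mmp19 differed beyond counting error in neither sub-cluster. It was 73.8 CPM (45.1 to 114) and 96.9 CPM (88.4 to 106) in A and had a ratio of 1.23 (0.960 to 1.58) in B. In macrophage-like cells it was 65.5 CPM (55.9 to 76.2) in LFD against 98.6 CPM (88.4 to 110) in HFD, giving a ratio of 1.51 (1.25 to 1.83). In the HFD library, 1 cell held 58 UMIs, and without the top cell of each library the ratio was 1.30. It was 1.66 (1.33 to 2.07) in cells with no neutrophil marker UMI and 0.933 (0.609 to 1.43) in those with one. HFD cells with a neutrophil marker UMI held 47 Mmp19 counts in all, so the cell with 58 was among the others. Those others held 289 HFD counts, and their ratio was not recomputed without that cell.

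The macrophage-like cells were divided by the resident macrophage genes Lyve1, Folr2, Cd163 and Timd4. At least 1 UMI of these was found in 28.9% of LFD (171 of 592) and 54.6% of HFD macrophage-like cells (288 of 527). Cells with such a UMI were also deeper, with median UMIs of 4745 against 3995 in LFD against 6624 against 5521 in HFD, so depth moves with the split and its part was not tested.

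Timp2 was higher in the cells with a resident UMI, 397 against 190 CPM in LFD, 2.08 times (1.78 to 2.44), and 2.65 times (2.35 to 2.99) in HFD. Mmp12 and Mmp19 were lower in them. Mmp12 had a with-to-without ratio of 0.360 (0.296 to 0.435) in LFD against 0.571 (0.497 to 0.654) in HFD, and Mmp19 had 0.625 (0.425 to 0.902) and 0.421 (0.335 to 0.527). Between the libraries, Timp2 was higher in HFD both in cells with a resident UMI, at 1.69 (1.499 to 1.91), and in cells without, at 1.33 (1.14 to 1.55). Mmp19 was at 1.35 (0.937 to 1.99) with and 2.01 (1.601 to 2.52) without. These Mmp19 ratios rest on 127 and 209 HFD counts, among them 58 of 1 cell, and were not recomputed without it. Mmp12 had ratios on either side of 1, 1.23 (1.01 to 1.52) with and 0.780 (0.692 to 0.877) without. The LFD cells with a resident UMI held 129 Mmp12 counts, while single macrophage-like cells held up to 119 LFD and 88 HFD counts. No Mmp12 ratio of this split was recomputed without such cells, so these directions are not secure. The ratio of Mmp9 stayed low in cells with and without a resident UMI, at 0.213 (0.118 to 0.374) and 0.131 (0.0698 to 0.228).

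**Figure D5:**
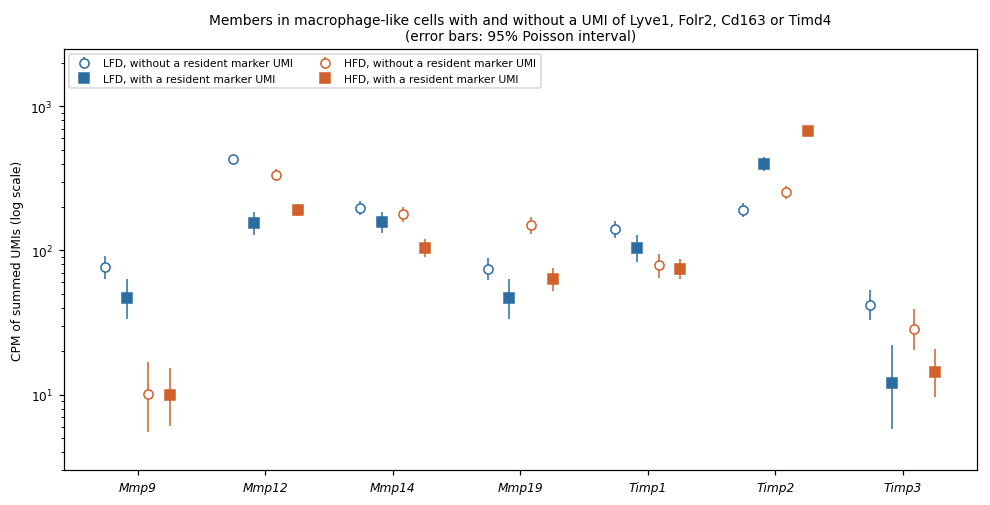
Levels (CPM, log axis) of 7 family genes in macrophage-like cells with and without a UMI of Lyve1, Folr2, Cd163 or Timd4, by library, with 95% intervals for counting error. Timp2 is higher in cells with such a UMI in both libraries, 397 against 190 CPM in LFD, and Mmp12 and Mmp19 are lower in them.

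Adamts1, which cuts the proteoglycans aggrecan and versican, was found in endothelial-like and stromal-like cells and in cluster 20. Cluster 20 had 382 CPM (249 to 559) in LFD against 570 CPM (505 to 642) in HFD. In endothelial-like cells it was 252 CPM (236 to 268) and 405 CPM (380 to 431), giving a ratio of 1.61 (1.47 to 1.76), scaled 1.47. Endothelial-like cluster 11 had 452 and 629 CPM, giving a ratio of 1.39 (1.23 to 1.58), and cluster 12 had 196 and 216 CPM, giving a ratio of 1.10 (0.956 to 1.27). Fibroblastic progenitor-like cells had 161 and 261 CPM, giving a ratio of 1.62 (1.45 to 1.81). Within them, Adamts1 was 229 CPM (175 to 293) and 290 CPM (275 to 305) in sub-cluster A, with overlapping intervals, and had a ratio of 0.983 (0.818 to 1.18) in sub-cluster B, so the pooled ratio was beyond counting error in neither. Macrophage-like cells had 17.1 and 8.22 CPM, from 43 and 28 counts, with free RNA estimated at 6.37 and 2.44 CPM, a ratio of 0.482 (0.288 to 0.794) that was 0.733 when doublets were kept. It was 0.710 (0.366 to 1.38) in cells with no neutrophil marker UMI and 0.284 (0.103 to 0.684) in those with one.

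Counts of family genes past 1.5-fold were set beside the share of all genes with at least 50 counts in the same cells. In pooled stromal-like cells, 9 of the 10 genes passed that minimum; Mmp3 and Timp2 were higher in HFD (background 9.3% of genes) and Mmp9 and Timp1 lower (4.68%). With median scaling, 6.95% of genes were higher and 6.34% lower, and Mmp3, at 1.42, was no longer past 1.5-fold. In cluster 0, Mmp3 was higher (6.64%) and Timp1 lower (3.35%) among 8 genes, and in cluster 3 the same pair (7.29% and 5.69%). Median scaling gave 5.23% and 4.17% of genes in cluster 0 and 5.21% and 7.27% in cluster 3. Mesothelial-like cells had Mmp3 and Mmp14 higher (7.36%) and Timp1 lower (2.91%) among 8 genes. With median scaling, against 4.45% and 4.19% of genes, Mmp14 (1.43) was no longer past 1.5-fold and Mmp2 (0.644) became so. Cycling cells had Timp2 higher (7.9%) and Mmp2 and Timp1 lower (3.81%), against 4.995% and 5.19%, with the same genes past 1.5-fold.

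Fibroblastic progenitor-like cells had Mmp14, Timp2 and Adamts1 higher (15.2%) and Timp1 and Timp3 lower (5.31%) among 8 genes. With median scaling, against 11.4% and 7.58% of genes, Mmp14 (1.494) was no longer past 1.5-fold. In endothelial-like cells, Timp2, Timp3 and Adamts1 were higher (17.2%) and Timp1 lower (7.91%) among 5 genes, and with median scaling, against 11.03% and 12.4%, Adamts1 (1.47) was no longer past it. Macrophage-like cells had Mmp19 and Timp2 higher (7.4%) and Mmp9, Timp1, Timp3 and Adamts1 lower (4.34%) among 8 genes, and with median scaling, against 5.80% and 5.48%, Mmp19 (1.44) was no longer past it. The Timp1 and Timp3 calls of macrophage-like cells turned with the free RNA estimates taken off (1.43 and 1.59). The median log2 ratio of the tested family genes ran from -0.56 in macrophage-like cells, where that of all genes was 0.06, to 0.68 in endothelial-like cells, where it was 0.13. With 5 to 9 family genes a type, these counts are a description.

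Around the family, 60 further genes of the matrix protease system were in the tables, other MMPs, Timp4 and Reck, ADAMTS and ADAM proteases, the plasmin system, and activators and clearance proteins. The counts of these genes past 1.5-fold, here and in the types below, use unscaled ratios. In pooled stromal-like cells, 47 of them had at least 50 counts, of which 13 were past 1.5-fold higher and 4 lower in the HFD library, beside the backgrounds of 9.3% and 4.68%. Among the lower was Mmp8, the neutrophil collagenase, at 41.5 CPM in LFD against 8.39 CPM in HFD, giving a ratio of 0.202 (0.185 to 0.221). The protease inhibitor A2m (0.223) and the membrane-bound Mmp16 (0.408) were lower too, A2m from 254 and 49 counts. Cluster 4, almost entirely from the LFD library, held 184 of the 254 LFD counts of A2m at 12.5 CPM, against 16.5 CPM in its HFD cells, and without clusters 4 and 7 the A2m ratio was 0.429. With the same clusters left out, Mmp8 was at 0.297 and Mmp16 at 0.405. The higher ones with at least 100 counts, the minimum for naming a gene of this list, were led by the membrane-anchored Mmp24 (5.56, from 22 and 106 counts), the matrix protein Thbs2 (4.93), which helps to clear Mmp2, and the proprotein convertase Pcsk6 (4.69). Without clusters 4 and 7, Mmp24, Thbs2 and Pcsk6 were at 4.51, 3.26 and 3.60. Of the Thbs2 UMIs, 367 of 413 in LFD and 1728 of 1764 in HFD came from fibroblastic progenitor-like cells, of which there were 218 and 584, and within them the ratio was 1.81 (1.62 to 2.03).

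Fibroblastic progenitor-like cells had 16 of 37 such genes higher and 3 lower, beside 15.2% and 5.31% of all genes. Pcsk6 stood at 8.04 and 45.0 CPM, giving a ratio of 5.59 (3.51 to 9.43), followed by Adamts16 (4.67) and Mmp11 (4.14) among genes with at least 100 counts; from fewer, Adamts19 had 2 and 62 counts and Plau 5 and 63. Lcn2, which binds Mmp9, was lower, at 568 CPM in LFD against 87.7 CPM in HFD, giving a ratio of 0.154 (0.139 to 0.171), as was Serpinb2, an inhibitor of urokinase (0.222). Neutrophil-like cells had 3163 and 689 CPM of Lcn2, and the 6 neutrophil markers in fibroblastic progenitor-like cells summed to 75.3 CPM in LFD, with 1 at 0, against 0.815 CPM in HFD, with 3 at 0. Of these cells, 185 of 218 in LFD were in sub-cluster B and 478 of 584 in HFD in sub-cluster A, and the part of either in these ratios was not tested. Mesothelial-like cells had 9 of 35 higher (7.36% of all genes), led among those with at least 100 counts by Pcsk6 (2.73), Adamts19 (2.29) and the procollagen peptidase Adamts14 (2.12), while Mmp24 was higher from 8 and 82 counts (5.09), and 2 were lower (2.91%), Lcn2 (0.502) and Mmp8 (0.506). In cycling cells, 4 of 31 were higher (7.9%) and 4 lower (3.81%). In cluster 0, 6 of 35 were higher (6.64%) and 1 lower (3.35%), and in cluster 3, 6 of 33 were higher (7.29%) and 4 lower (5.69%). Mmp8 was also lower in these 3 groups, with ratios of 0.168, 0.473 and 0.213.

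In endothelial-like cells, 6 of 24 were higher (17.2%) and 2 lower (7.91%). Timp4, another TIMP, stood at 34.5 CPM in LFD against 114 CPM in HFD, giving a ratio of 3.32 (2.69 to 4.11). In cluster 20, which held both mural and endothelial markers, Timp4 was 117 and 224 CPM, and the part of the mural markers of endothelial-like cells (82.3 and 215 CPM) in its ratio was not tested. Plat, tissue plasminogen activator, was also higher (2.06), and Adamts10 was lower (0.611). Macrophage-like cells had 4 of 18 higher (7.4%) and 3 lower (4.34%). Plaur, the urokinase receptor, had 77.8 and 130 CPM, giving a ratio of 1.67 (1.41 to 1.99), and the membrane protease Adam15 had 1.53. With median scaling, Adam15 was no longer past 1.5-fold. Serpinb2 was lower, at 137 and 35.5 CPM, giving a ratio of 0.259, as was Mmp8, at 232 and 72.8 CPM, giving a ratio of 0.313 (0.269 to 0.364). The free stromal RNA estimates for Serpinb2 in these cells were 108 and 27.7 CPM, most of its level in each library. Neutrophil-like cells had 1278 and 288 CPM of Mmp8, beside neutrophil markers of 155 and 52.8 CPM in the macrophage-like cells, whose part in its ratio was not tested.

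To describe which genes shared the pattern of each family gene, log2(CPM + 1) was correlated over 31 pairs of cell type and library with at least 50 cells among 13106 genes. The pairs share libraries and depth, so Pearson's r is a description. Mmp12 was most like Nxpe5 (r = 0.98), Fcgr1 (0.98) and C1qa (0.97). Among the genes most like Mmp9 were Msrb1 (0.96) and Fpr1 (0.94). The nearest genes of Timp1 were Lox (0.95), Cxcl5 (0.95) and Col1a2 (0.95), and those of Timp2 were Ccl2 (0.94), Dram1 (0.94) and Xdh (0.92).

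For Timp3 they were Hspb1 (0.94), Arhgap29 (0.94) and Schip1 (0.93), and for Adamts1 Lama4 (0.96), Cavin1 (0.95) and Erbb2 (0.95). Mmp14 was nearest to Slc6a8 (0.94), Layn (0.94) and Gab1 (0.94). Mmp19 was nearest to Ccl7 (0.95), Trf (0.94) and Pdpn (0.92). Mmp2 was most like Islr (0.91), Lrrc17 (0.90) and Ephb2 (0.90), and Mmp3 most like Tmem95 (0.94), Lum (0.92) and Plekha4 (0.92). Within the family, the closest pair was Timp3 and Adamts1 (0.89), the genes with their highest levels in cluster 20, followed by Mmp19 and Timp2 (0.86).

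The positions below are GENCODE M21 gene spans on GRCm38. Mmp3 (chr9:7445822-7455975) and Mmp12 (chr9:7344381-7369499) lie near each other on the plus strand of chromosome 9, and Mmp12 has Mmp1b antisense to it. Timp1 (chrX:20870166-20874735) lies within Syn1 and Timp3 (chr10:86300372-86349506) overlaps Syn3, each on the opposite strand. Mmp2 (chr8:92827291-92853420), Mmp9 (chr2:164940780-164955850), Mmp14 (chr14:54431612-54445364) and Mmp19 (chr10:128790910-128800824) are on the plus strand, and Adamts1 (chr16:85793827-85803113) is on the minus strand. Mmp19 has Gm47093 and Tmem198b antisense to it.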

How the data were processed

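Sorted cells were measured by single-cell RNA-seq in 2 libraries, 1 per diet. The values deposited are unnormalised UMI counts by gene and barcode, made by the authors with Cell Ranger 4.0.0 on mm10 (STAR, per the file headers and the submitters' processing notes, which also name Seurat 4.1.0 and bcl2fastq 2.17.1.14). The other deposited files gave gene and barcode names and no measurement. The gene annotation used for counting is not given in the sources used here. Of the 32285 gene IDs, 32158 matched GENCODE M21 (GRCm38), the source of the gene positions.

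Cells with 500 to 40000 UMIs, at least 100 genes and under 12.5% mitochondrial UMIs were kept, which follows the study's methods. The deposited 11281 LFD and 9631 HFD barcodes held 114311020 and 119498750 UMIs. Doublets were removed by Scrublet score at 0.8% per 1000 barcodes, which took 922 LFD (9.03%) and 658 HFD cells (7.71%), whereas the automatic threshold marked 3.64% and 4.01%. Cells were clustered in scanpy 1.11.5 (Python 3.11.15) on 2000 variable genes without the family and pathway genes, with 30 principal components, 20 neighbours and Leiden resolution 1 (2 for sub-clusters), and the 22 clusters were named from marker lists, except cluster 19, led by haemoglobin genes, and cluster 20, whose 10 leading genes held more endothelial than mural markers, a rule added after the data had been seen. The naming rule was fixed with the clusters already in view. A name ending in -like rests on markers alone.

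UMIs were added up within each type and library and given as CPM with exact Poisson intervals, ratios with the exact conditional binomial interval, and shares with the exact (Clopper-Pearson) interval, all at 95%. Ratios, those within sub-clusters included, needed at least 100 cells in both libraries and 20 counts; called means past 1.5-fold, with genes of at least 50 counts as background. For a count of 0, 3 counts give the upper limit. The free RNA level in a type is the median share of stromal genes found there times the gene's stromal level. Intervals were checked on simulated counts. All 10 family genes were named, with pathway genes past 1.5-fold with at least 100 counts, at most 3 each way per type, and the 3 most alike genes; a few items that this rule names are not reported here. Family and lists were chosen with earlier results of these data known. Alternatives covered scaling, per-cell means, doublets, filters, resolution, thinning and per-cell assignment; 4 more were added after the data had been seen.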

Additional observations from a re-analysis of the deposited data

Results flagged for a closer look

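In 5 cases a family gene was higher in the HFD library in 1 cell type or cluster and lower in another, each beyond counting error, and the difference between the types was not tested, since each diet had 1 library. Mmp2 had an HFD to LFD ratio of 1.35 (1.25 to 1.46) in fibroblastic progenitor-like cells and 0.128 (0.0776 to 0.202) in cycling stromal-like cells, ratios that differ 10.5 times; mesothelial markers in the cycling cells summed to 545 CPM in LFD against 1113 CPM in HFD. Within the fibroblastic progenitor-like cells, Mmp2 was 624 and 504 CPM in sub-cluster A and had a ratio of 1.01 (0.888 to 1.15) in sub-cluster B, so neither was higher in HFD beyond counting error. Mmp14 had 1.61 (1.46 to 1.77) in fibroblastic progenitor-like and 0.734 (0.643 to 0.837) in macrophage-like cells, a difference of 2.19 times. Timp3 had 2.11 (1.94 to 2.29) in endothelial-like and 0.630 (0.450 to 0.880) in macrophage-like cells, which differ 3.35 times; the macrophage-like levels were 32.1 and 20.3 CPM beside free RNA estimates of 24.2 and 7.69 CPM, and the ratio left when these were taken off was 1.59, the same direction as in endothelial-like cells. Adamts1 had 1.62 (1.45 to 1.81) in fibroblastic progenitor-like and 0.482 (0.288 to 0.794) in macrophage-like cells, 3.36 times apart. Of the fibroblastic sub-clusters, A had 229 CPM (175 to 293) in LFD against 290 CPM (275 to 305) in HFD and B a ratio of 0.983 (0.818 to 1.18), neither beyond counting error. Mmp19 had 1.51 (1.25 to 1.83) in macrophage-like cells and 0.745 (0.623 to 0.885) in stromal-like cluster 3, 2.02 times apart, and without the top cell of each library the first was 1.30. In macrophage-like cells with a neutrophil marker UMI it was 0.933 (0.609 to 1.43), and in those with a resident macrophage UMI 1.35 (0.937 to 1.99), both intervals including 1. In macrophage-like cells with no neutrophil marker UMI, the Adamts1 ratio was 0.710 (0.366 to 1.38) and that of Timp3 0.692 (0.444 to 1.08), also including 1, and the Mmp14 ratio was 1.27 (1.00 to 1.62) in those with one.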

How the results depend on the processing

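No paired analysis was possible because each diet had 1 library and no result comes from a test. Of 483 ratios recomputed under an alternative, 20 moved by over 1.5 times. Of the ratios whose interval left out 1, 6 turned: Timp1 (1.43) and Timp3 (1.59) in macrophage-like and Timp3 in B-like cells (1.09) with the free stromal RNA estimate taken off, a setting added after the data had been seen. The others were Mmp3 in fibroblastic progenitor-like cells (0.971) from per-cell means, Timp3 in pooled stromal-like cells 0.962 with median-ratio scaling, and Timp3 in fibroblastic progenitor-like cells 1.18 with doublets kept. Another 8 ratios with 1 inside their interval crossed it in 13 recomputations, among them Mmp2 in mesothelial-like cells (0.700 to 1.19 at the higher resolution), Mmp3 in cycling cells (1.07 to 0.985 scaled), Adamts1 in cluster 3 (1.04 to 0.981 scaled) and in B-like cells (0.655 to 1.44 by own markers), and Mmp14 (1.21 to 0.605) and Timp2 (1.25 to 0.905) in plasma cell-like cells with doublets kept. Median-ratio scaling also gave, in pooled stromal-like cells, 0.321 for Timp1, 1.66 for Timp2 and 1.21 for Mmp14, then 0.332 for Timp1 in fibroblastic progenitor-like cells, 1.33 for Timp2 and 0.923 for Timp3 in mesothelial-like cells, and 1.47 for Adamts1 in endothelial-like cells. Per-cell means gave 0.371 for stromal-like Timp1, 1.40 for mesothelial-like Timp2, 0.219 for macrophage-like Mmp9 and 0.529 for Mmp12. With doublets kept, stromal-like Timp1 was 0.351, and mesothelial-like Timp2 and Timp3 were 1.70 and 0.959. At the higher resolution the latter were 1.32 and 1.20. When each cell was assigned by its own markers, stromal-like Timp1 was 0.363 and Timp2 1.77, and the separate stromal types gave no value. Without clusters 4 and 7, added after the data had been seen, stromal-like Timp1, Timp2, Timp3 and Mmp14 were 0.493, 1.55, 1.10 and 1.36. The cause of these moves was not tested. At a 2-fold limit, the share of genes called fell to between 1.26% and 4.88% higher and 0.789% and 2.19% lower in HFD across the 8 types. With a minimum of 20 counts it was 8.23% to 19.2% and 4.73% to 9.11%. Few counts of Mmp9, Mmp12 and Mmp3 outside their main types limit the precision of those ratios.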
